A study of Rattus norvegicus with 6 samples.

Results

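The insulin-like growth factors (IGFs), their receptors and binding proteins, and the noncoding RNA H19 were followed in whole rat ovaries over the first days after birth. The genes were chosen by name: Igf1, Igf2, H19, Igf1r, Igf2r, Igfbp2, Igfbp3, Igfbp4, Igfbp5 and Igfbp6. Every probe set of the array whose annotation gives exactly 1 symbol, equal to one of these 10, was taken. This gave 25 of the 8799 probe sets, for 9 of the 10 genes. Igf1 had 5, Igf2 had 6, H19 and Igf1r had 2 each, Igf2r had 1, Igfbp2 had 3, Igfbp3 had 2, Igfbp5 had 3 and Igfbp6 had 1. No probe set met the rule for Igfbp4, which was not analysed here.

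Affymetrix rat U34 arrays (set A), 6 in all, measured RNA from 3 groups with 2 arrays each, and every array holds RNA pooled from about 20 ovaries. P0 ovaries were taken on the day of birth and P4 ovaries on postnatal day 4. Cultured ovaries were taken at birth and kept whole for 7 days on floating filters in a medium with insulin at 200 ng/ml, transferrin, albumin preparations and ascorbic acid, with no serum named. None of the labels gives a strain or a genetic change. The series design text speaks of progesterone given to some cultured ovaries but no label assigns it to an array, so both cultured arrays, which carry the same group labels, were grouped. The labels describe the 2 RNA samples of a group as independent pools, so p-values measure the spread between pools.

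IGF1 and IGF2 are small secreted hormones that act through the IGF1 receptor, a tyrosine kinase, while the IGF2 receptor takes up IGF2 and carries it to lysosomes for breakdown. The IGF binding proteins hold the hormones in the extracellular fluid and set how much reaches the receptors. Igf2 and H19 are imprinted neighbours, Igf2 being read from the paternal and H19 from the maternal chromosome in most fetal tissues, and both are known for high levels in the fetus. In the rodent ovary, IGF1 is known as a product of granulosa cells that strengthens their response to follicle-stimulating hormone.

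Several of these genes lie side by side in the RefSeq annotation of the rat (GRCr8). No annotated gene lay between Igf2 and H19 on chromosome 1, between Igfbp2 and Igfbp5 on chromosome 9, or between Igfbp3 and Igfbp1 on chromosome 14. Mature microRNAs lay within the bounds of Igf2 and of H19. Their sequences from RefSeq (GRCr8, chromosome 1, minus strand) are shown because they are the part of both loci that acts through base pairing, with the seed, bases 2 to 8, in capitals. The arrays did not measure them. The first pair belongs to Igf2 and the second to H19, and no seed is shared.
rno-miR-483-5p: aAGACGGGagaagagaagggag
rno-miR-483-3p: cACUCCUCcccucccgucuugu
rno-miR-675-5p: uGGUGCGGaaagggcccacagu
rno-miR-675-3p: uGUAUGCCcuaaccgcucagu

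Promoter sequences, 250 bases before to 50 bases after a start site, were found in RefSeq for 9 of the 10 genes, with 10 entries in all because Igf2 has a pair of starts. Those of Igf2, Igfbp2 and Igfbp5 are shown, since these genes had the lowest readings at P4 relative to P0 among the genes with an entry. Capitals mark matches to GGGCGG, the core of the GC box, on either strand; the Igfbp5 window has none. The Igf2 entries are chr1:207253931-207254230 (upstream start) and chr1:207250426-207250725 (downstream start), both on the minus strand. Igfbp2 is at chr9:81864561-81864860 on the plus strand and Igfbp5 at chr9:81914138-81914437 on the minus strand, all in GRCr8.
Igf2 upstream start: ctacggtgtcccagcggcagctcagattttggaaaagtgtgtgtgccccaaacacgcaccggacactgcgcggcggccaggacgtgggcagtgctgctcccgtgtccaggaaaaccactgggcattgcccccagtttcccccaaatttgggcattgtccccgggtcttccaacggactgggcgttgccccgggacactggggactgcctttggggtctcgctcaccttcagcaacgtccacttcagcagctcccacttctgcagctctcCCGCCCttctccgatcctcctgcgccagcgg
Igf2 downstream start: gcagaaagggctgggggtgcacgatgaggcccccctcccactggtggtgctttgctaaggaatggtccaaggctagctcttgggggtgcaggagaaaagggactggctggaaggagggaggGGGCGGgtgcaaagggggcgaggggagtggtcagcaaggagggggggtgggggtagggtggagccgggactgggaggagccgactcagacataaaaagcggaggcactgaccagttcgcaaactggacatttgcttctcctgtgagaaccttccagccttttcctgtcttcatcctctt
Igfbp2: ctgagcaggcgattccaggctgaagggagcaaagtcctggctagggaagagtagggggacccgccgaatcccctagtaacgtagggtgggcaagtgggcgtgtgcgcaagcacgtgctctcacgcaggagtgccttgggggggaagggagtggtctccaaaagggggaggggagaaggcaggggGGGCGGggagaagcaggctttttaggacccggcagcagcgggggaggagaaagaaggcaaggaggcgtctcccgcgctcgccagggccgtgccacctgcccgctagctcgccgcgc
Igfbp5: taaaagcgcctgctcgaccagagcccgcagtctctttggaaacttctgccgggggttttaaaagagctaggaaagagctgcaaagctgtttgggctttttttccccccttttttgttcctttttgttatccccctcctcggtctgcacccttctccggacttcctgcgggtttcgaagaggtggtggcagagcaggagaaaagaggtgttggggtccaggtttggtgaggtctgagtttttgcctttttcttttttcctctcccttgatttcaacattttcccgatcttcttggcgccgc

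GGGCGG was found in 5 of the 10 promoter entries, against 33.1% of 33465 promoters of the same length, and the TATA motif TATAAA in 1 of the 10, that of Igfbp4, against 14.2%. The 2 motifs, searched on both strands, cannot overlap. The pair of Igf2 starts differed in CpG content, with 19 CpG dinucleotides at the upstream and 7 at the downstream start, against a median of 7 over all promoters. Igfbp2 had 20 and Igfbp5 had 11. These counts describe the letters of the windows and say nothing of factor binding.

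Markers of oocytes, granulosa cells and stroma were present in all groups. Summed over 8 oocyte genes on the array, intensities were 1620 to 1722 at P0, 4082 to 4399 at P4 and 3227 to 3332 in culture. The sum was carried by zona pellucida genes: Zp1, Zp2 and Zp3 passed limma's test as higher at P4 than at P0, while the meiotic genes Sycp1 and Sycp3 passed as lower, and the same 5 passed in the same directions in culture against P0. Over 14 granulosa and pregranulosa genes the sums were 3391 to 3859, 3952 to 4448 and 2421 to 2565, but members moved in both directions. Of 12 tested, Inha and Cyp19a1 passed as higher at P4 than at P0. With the replicate block, 4 were higher and 2 lower. In culture against P0, Krt8 and Krt18 passed as higher and Fst as lower. In culture against P4, Krt8 and Krt18 passed as higher, Inha, Amh and Cyp19a1 as lower, and 7 did not pass. Over 11 stromal genes the sums were 19300 to 19820, 17620 to 19770 and 15660 to 16180, and 2 of the 11 were lower at P4 with the block. Smooth muscle genes summed to means of 1537, 2228 and 1733, endothelial genes to 477.2, 324 and 265.3, and theca and steroid-making genes to 149, 307.1 and 147, with 1 of 5 theca genes above the level of unspiked controls on all arrays. Of 4 endothelial genes tested, only Cav1 passed with the replicate block, as lower at P4 (log2 difference -1.01, limma adjusted p = 0.196, or 0.0146 with the block). Pecam1, Kdr and Flt1 differed by 0.04, -0.39 and -0.34 (adjusted p = 0.942, 0.308 and 0.428 with the block). The 5 erythroid genes summed to 3985 to 4105 at P0, 2254 to 2992 at P4 and 184.4 to 204.2 in culture. Hbb carried this sum, at means of 3770, 2410 and 33.9. Alas2 averaged 138, 101 and 71.3 and Slc4a1 87.9, 94.4 and 76.4, and Epor lay under the level of unspiked controls throughout. Of 4 tested, 2 passed as lower in culture than at P0. The 7 macrophage and leukocyte genes summed to 413.3 to 504.9, 271.8 to 350.6 and 1755 to 3569, and 5 of the 7 passed limma's test as higher in culture than at P0. The 6 adipocyte genes summed to 103.4 to 141.6, 195.9 to 279.7 and 1198 to 1749, and 3 of the 5 tested were higher in culture than at P0. The part of these cell types in the results on IGF genes was not tested, and in whole ovaries fewer cells of a type and less RNA per cell cannot be told apart. Of markers of neighbouring organs, 7 liver genes summed to 130.1 to 221.1 over the 6 arrays, with Apoa2 and Fgb under the level of unspiked controls throughout and Serpina1 above it at 55.3 to 111. The 6 mesonephros and kidney genes summed to 199.7 to 275.6, with Lhx1 and Slc12a1 under that level and Pax8 (78.7 to 105.4) and Cdh16 (66.7 to 100.1) above it on every array.

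The level of unspiked controls was an intensity of 20, the top value seen among 23 control probe sets whose transcripts were not spiked in. Of the 25 IGF and H19 probe sets, 19 exceeded it on all 6 arrays and 3 on none. Removing the dimmest 30% of probe sets by mean log2 value kept 21 of the 25, for all 9 genes with a probe set. The 4 left out were 3 of Igf2 and 1 of Igfbp5.

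Igf2 and H19 were bright, and both read lower at P4 than at P0. By mean log2 level their brightest probe sets ranked 390 and 225 of the 8740 that were not controls. The brightest Igf2 probe set, X17012mRNA_s_at, read 1260.5 and 2007.1 at P0, 311.6 and 632.3 at P4, and 366.3 and 1417.2 in culture. Both P0 arrays stood above both P4 arrays, while the cultured arrays spread from the P4 range into the P0 range. As group levels these were 1630 ± 528, 472 ± 227 and 892 ± 743 (SD, n = 2). Differences are of log2(intensity + 7.7), and a value passed where its p, adjusted by Benjamini-Hochberg for the whole array, was under 0.05. In the replicate pairs of P4 and P0, whose arrays share a number in the chip ID, the log2 difference was -1.99 and -1.65, and their mean was -1.82 (SE 0.55). It missed the threshold in limma's test without a block (adjusted p = 0.167) and passed it with the replicate number as a block (SE 0.16, adjusted p = 0.000627).

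**Figure D1:**
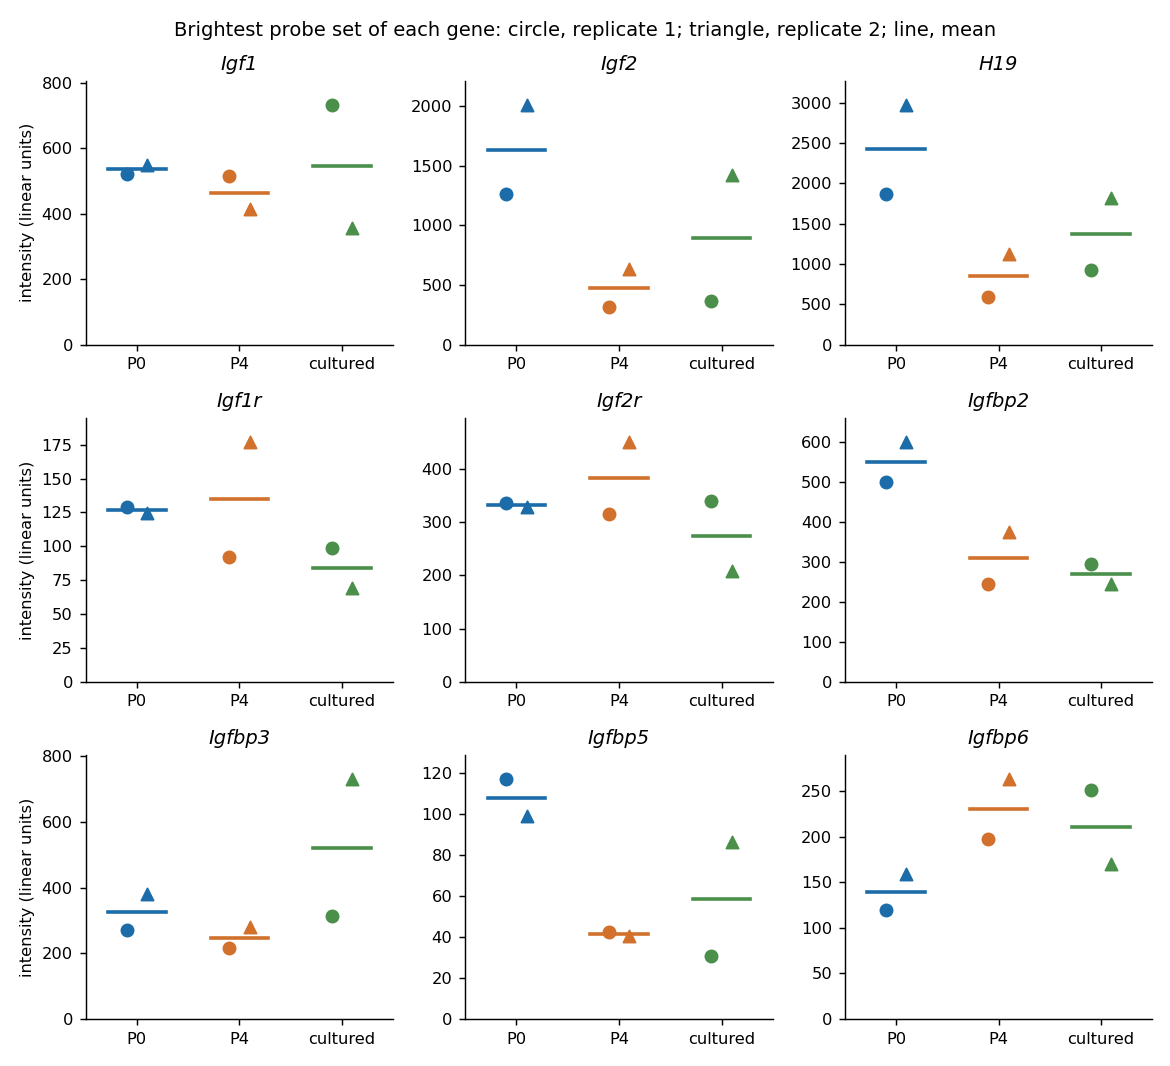
Intensity (linear units, axes from 0) of the brightest probe set of each of the 9 genes on the 6 arrays, with circles for replicate 1, triangles for replicate 2 and lines for the mean of the 2. Igf1 (by a small margin), Igf2, H19, Igfbp2 and Igfbp5 have both P0 points above both P4 points, and Igfbp6 has both below.

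The other Igf2 probe sets were far dimmer. M17960_g_at read 98.7 and 88.6 at P0, 68.2 and 62.6 at P4, and 37.6 and 60 in culture, with no overlap between P0 and either other group. M17960_at, named for the same sequence record, read 53.7 and 49.9, then 38.5 and 30, then 27.4 and 30.9. Their P4 to P0 differences of -0.47 and -0.51 passed neither without the block (limma adjusted p = 0.487 and 0.443) nor with it (adjusted p = 0.206 and 0.237). E00988mRNA_s_at exceeded the level of unspiked controls on 1 array only, at 28.3 in P0 replicate 2, and read 4.7 to 13 elsewhere. X16703_r_at and X16703_i_at stayed between 0.1 and 8.3 on all arrays, so 6 probe sets annotated to 1 gene spanned readings from 0.1 to 2007.1. The size of the Igf2 difference therefore rests on X17012mRNA_s_at, whose suffix marks a set that can match several similar transcripts.

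H19 has 2 probe sets named for 1 sequence record, which share a target and are not independent. X59864mRNA_g_at read 1870 and 2970.6 at P0, 592.5 and 1121.3 at P4, and 922.5 and 1813.2 in culture. X59864mRNA_at read 1462.4 and 3195.2, then 408.7 and 879.1, then 763.9 and 1800.8. On both, every P4 array lay below every P0 array, and the cultured arrays overlapped P4. On the first both cultured arrays lay below both P0 arrays, replicate 2 by a small margin, and on the second they overlapped P0. The order of group means was P0, cultured, P4 for H19 as for the brightest Igf2 probe set. The replicate pairs differed by -1.65 and -1.40 on the first and by -1.82 and -1.85 on the second. The mean differences of -1.52 (SE 0.37) and -1.84 (SE 0.48) missed the threshold without a block (limma adjusted p = 0.101 and 0.124) and passed with it (adjusted p = 0.000762 and 0.000436). Leaving out 1 array at a time moved the first between -1.98 (without P4 replicate 2, where it passed with no block, adjusted p = 0.0358) and -1.07 (without P4 replicate 1), and the second between -2.4 (without P0 replicate 1) and -1.27 (without P0 replicate 2). For Igf2 the range was -2.32 (without P4 replicate 2) to -1.32 (without P4 replicate 1), and no such fit passed.

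Replicate pools of a group differed on the brightest Igf2 probe set and on H19. The brightest Igf2 probe set read 1.59 times as high in replicate 2 as in replicate 1 at P0, 2.03 times at P4 and 3.87 times in culture. The dimmer Igf2 probe sets M17960_g_at and M17960_at gave 0.898 and 0.929 at P0, 0.918 and 0.779 at P4, and 1.6 and 1.13 in culture. For H19 on X59864mRNA_at these ratios were 2.18, 2.15 and 2.36. In absolute log2 terms, the cultured step of the brightest Igf2 probe set exceeded or equalled those of 99.8% of the tested probe sets between the cultured arrays. The H19 steps on X59864mRNA_at did so for 96.6%, 97.3% and 97.9% at P0, P4 and in culture. On X59864mRNA_g_at, the brightest H19 probe set, the steps were smaller. Its ratios were 1.59, 1.89 and 1.97, and the shares were 86.3%, 95.6% and 95.1%. At P0 and P4 the replicate number goes with the number in the chip ID, so the pools and whatever that number stands for cannot be told apart there.

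The receptors showed no difference past the threshold in any comparison. Igf1r read 129 and 124.8 at P0, 92.3 and 176.9 at P4, and 98.5 and 69.4 in culture on L29232_at. On M27293_s_at it read 77.3 and 83.6, then 64.7 and 77.1, then 45.8 and 54.4. The P4 range enclosed the P0 range on the first. Cultured arrays lay below P0 arrays on both, with differences of -0.57 (95% interval -1.26 to 0.12, limma adjusted p = 0.336) and -0.61 (-1.12 to -0.10, adjusted p = 0.159). Igf2r, also known as the cation-independent mannose 6-phosphate receptor, read 335.7 and 328.2 at P0, 315.3 and 450.7 at P4, and 340.6 and 207.8 in culture. Its replicate pairs moved in opposite directions between P0 and P4, by -0.09 and 0.45, and the mean difference was 0.18 (adjusted p = 0.857). Without P4 replicate 2 it was -0.07, and the Igf1r difference on L29232_at, 0.01 over all arrays (adjusted p = 0.992), was -0.43.

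The brightest Igf1 probe set, M15481_g_at, read 522.2 and 550.1 at P0, 516.6 and 413 at P4, and 732.3 and 357.8 in culture, so both P4 arrays lay below both P0 arrays by a small margin and the cultured arrays enclosed all others. The P4 to P0 difference was -0.21 (95% interval -0.89 to 0.47, limma adjusted p = 0.845). The other 4 Igf1 probe sets read 10.7 to 75.1 on all arrays, and their differences from P0 to P4 lay between -0.25 and 0.14. None of the 5 passed in any comparison.

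Among the binding proteins, Igfbp2, a carrier known for high fetal levels, was lower at P4 and in culture than at birth on all 3 of its probe sets in the mean. J04486_at read 499.3 and 598.7 at P0, 244.4 and 374.6 at P4, and 294.1 and 243.3 in culture. M91595exon_s_at read 372.4 and 676.2, then 180.8 and 391.4, then 202.5 and 178.7. A09811cds_s_at read 281.1 and 432.1, then 171.9 and 328.1, then 197.8 and 147.5. Cultured arrays lay below P0 arrays on all 3, and P4 arrays did so only on the first. The P4 to P0 differences of -0.84, -0.89 and -0.54 did not pass without the block (limma adjusted p = 0.162, 0.339 and 0.549), and the first 2 passed with it (adjusted p = 0.0257 and 0.0162; the third, adjusted p = 0.114). In culture the first fell by 1.01 relative to P0 (SE 0.24, 95% interval -1.56 to -0.46, adjusted p = 0.045), and the other differences were -1.36 and -1.0 (adjusted p = 0.0706 and 0.121).

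Igfbp5, which binds IGFs and the extracellular matrix, had probe sets that differed in which arrays were high. rc_AI029920_s_at read 117.1 and 99.1 at P0, 42.4 and 40.5 at P4, and 30.9 and 86.6 in culture. Both P4 arrays were low and close together, and the difference of -1.23 (SE 0.37, limma adjusted p = 0.167) passed with the block (adjusted p = 0.00856). M62781_at read 42.5 and 161.2, then 34.8 and 55.8, then 39.3 and 38.1, so that P0 replicate 2 alone was high. Its difference of -0.83 (adjusted p = 0.526, or 0.125 with the block) became 0.05 without that array. rc_AI070577_at read 1.9 to 18, under the level of unspiked controls on every array.

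Igfbp6, a binding protein with a preference for IGF2, was the only measured gene here whose P4 arrays both lay above its P0 arrays. It read 119.6 and 159.7 at P0, 197.3 and 263.4 at P4, and 251.4 and 170 in culture. The replicate pairs differed by 0.69 and 0.70, and the mean difference of 0.69 (SE 0.27) did not pass without the block (limma adjusted p = 0.294) or with it (adjusted p = 0.0541). Igfbp3, the main IGF carrier of serum, read 270.5 and 379.4 at P0, 214.6 and 279.9 at P4, and 312 and 729.9 in culture on M31837_at. On rc_AI009405_s_at it read 85.2 and 121.5, then 48.6 and 111.9, then 105.1 and 261.6. Cultured replicate 2 was the highest array on both, at 2.34 and 2.49 times cultured replicate 1. The cultured to P4 differences were 0.94 (95% interval 0.13 to 1.75, adjusted p = 0.266) and 1.09 (0.08 to 2.09, adjusted p = 0.31), and the cultured to P0 differences 0.57 and 0.67 (adjusted p = 0.424 and 0.443).

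Between P4 and P0, the window in which rat oocytes become enclosed in primordial follicles, 0 of the 21 tested probe sets of these genes passed limma's test without a block, where 1.08% of all 6118 did (0.85% higher and 0.229% lower). At an unadjusted p under 0.05 there were 7, against 13% of all tested. With the replicate number as a block, 6 passed, all of them lower at P4, against 5.13% of all probe sets in either direction, 3.17% higher and 1.96% lower: both of H19, 2 of Igfbp2, and 1 each of Igf2 and Igfbp5. The P4 arrays lay wholly below the P0 arrays on 9 of the 21 (25.7% of all tested did so) and wholly above on 1 (18.6%). Of the 21, 16 were lower in both replicate pairs (36.9% of all tested), 2 were higher in both (27.9%) and 3 moved in opposite directions. A difference below -1 in both pairs was seen on 4 of them, for Igf2, H19 and Igfbp5, against 0.67% of all. The 21 probe sets cover 9 genes, and those of the same gene are not independent in these counts. The median difference over the 21 was -0.42, where it was -0.05 over all tested, and over the brightest probe set of each gene it was -0.38, with 6 lower and 3 higher. The block has 1 residual degree of freedom among 4 arrays, so its calls lean on the variance shared across probe sets (8.71 prior degrees of freedom). The block fit also leaves out the cultured arrays. In a fit to the same 4 arrays with no block, 0 of the 21 passed.

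**Figure D2:**
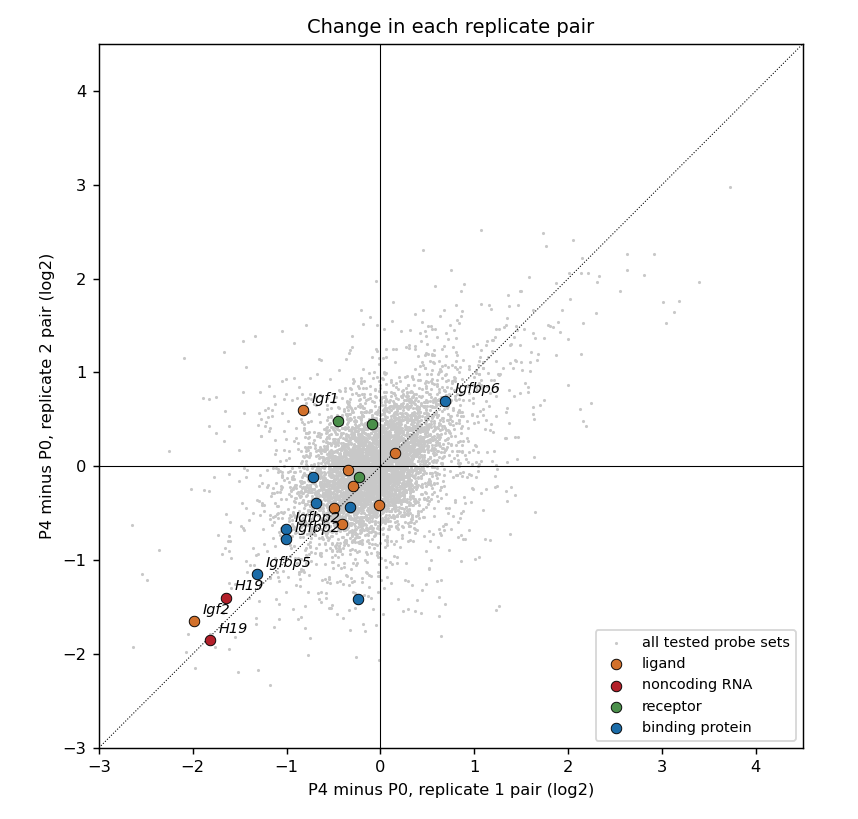
Log2 difference of P4 minus P0 in the replicate 1 pair (x axis) and the replicate 2 pair (y axis) for all 6118 tested probe sets (grey) and the 21 of the IGF genes and H19, coloured by role; the dotted line marks equal change. Igf2 at -1.99 and -1.65 and H19 at -1.82 and -1.85 lie near the line at the lower left, and Igfbp6 at 0.69 and 0.70 is labelled above 0 on both axes.

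Between culture and birth, 1 of the 21 passed without a block, the Igfbp2 probe set J04486_at, against 5.43% of all tested in either direction, 3.48% higher and 1.95% lower. At an unadjusted p under 0.05 there were 8, against 20.8% of all tested. Cultured arrays lay wholly below P0 arrays on 10 of the 21 (29% of all tested did so) and wholly above on 3 (21.3%), and the median difference was -0.61 against -0.08 over all. The 3 include the dim Igf1 probe sets D00698_s_at and X06107_i_at, which exceeded the level of unspiked controls on the cultured arrays only. The call of Igfbp2 ended without P0 replicate 1, P0 replicate 2, cultured replicate 1 or cultured replicate 2 (adjusted p = 0.0843, 0.19, 0.14 and 0.25). Without P4 replicate 1 or P4 replicate 2, the Igfbp2 probe set M91595exon_s_at passed as well (adjusted p = 0.0183 and 0.0194). The Igfbp5 probe set rc_AI029920_s_at differed by -0.94 (adjusted p = 0.188), by -1.58 without cultured replicate 2 (adjusted p = 0.0408) and by -0.29 without cultured replicate 1 (adjusted p = 0.644). M62781_at differed by -0.99 (adjusted p = 0.282), by -1.86 without P0 replicate 1 (adjusted p = 0.0213) and by -0.11 without P0 replicate 2 (adjusted p = 0.913). The brightest Igf2 probe set differed by -1.13 (95% interval -2.36 to 0.10, adjusted p = 0.283) and H19 by -0.86 and -0.88 (adjusted p = 0.228 and 0.35). These sizes turned on the cultured arrays: without cultured replicate 1 they were -0.17, -0.38 and -0.26, and without cultured replicate 2 they were -2.1, -1.35 and -1.49, none of them passing. Insulin was in the medium of both cultured arrays, and each carries a chip ID number of its own that no P0 or P4 array shares. Cultured ovaries were also 7 days past birth. Culture, insulin, time since birth, chip ID number and any progesterone given therefore cannot be told apart.

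Between culture and P4, 0 of the 21 passed (2.78% of all tested did, 2.16% higher and 0.621% lower), and 2, both of Igfbp3, had an unadjusted p under 0.05, against 14% of all tested. Cultured arrays lay wholly below P4 arrays on 2 (24.5% of all tested) and wholly above on 4 (19.1%). The 4 include the dim Igf1 probe sets D00698_s_at and X06107_i_at. The median difference was 0, where it was -0.04 over all. Igf2 on its brightest probe set was 0.69 higher (95% interval -0.54 to 1.92, adjusted p = 0.676), and H19 0.66 and 0.96 higher (adjusted p = 0.499 and 0.426). Without cultured replicate 2 the Igf2 difference was -0.27. Cultured and P4 ovaries also differed in time since birth, 7 days against 4, which cannot be told apart from culture, its medium and the chip ID number. The 3 comparisons share arrays and are not independent.

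**Figure D3:**
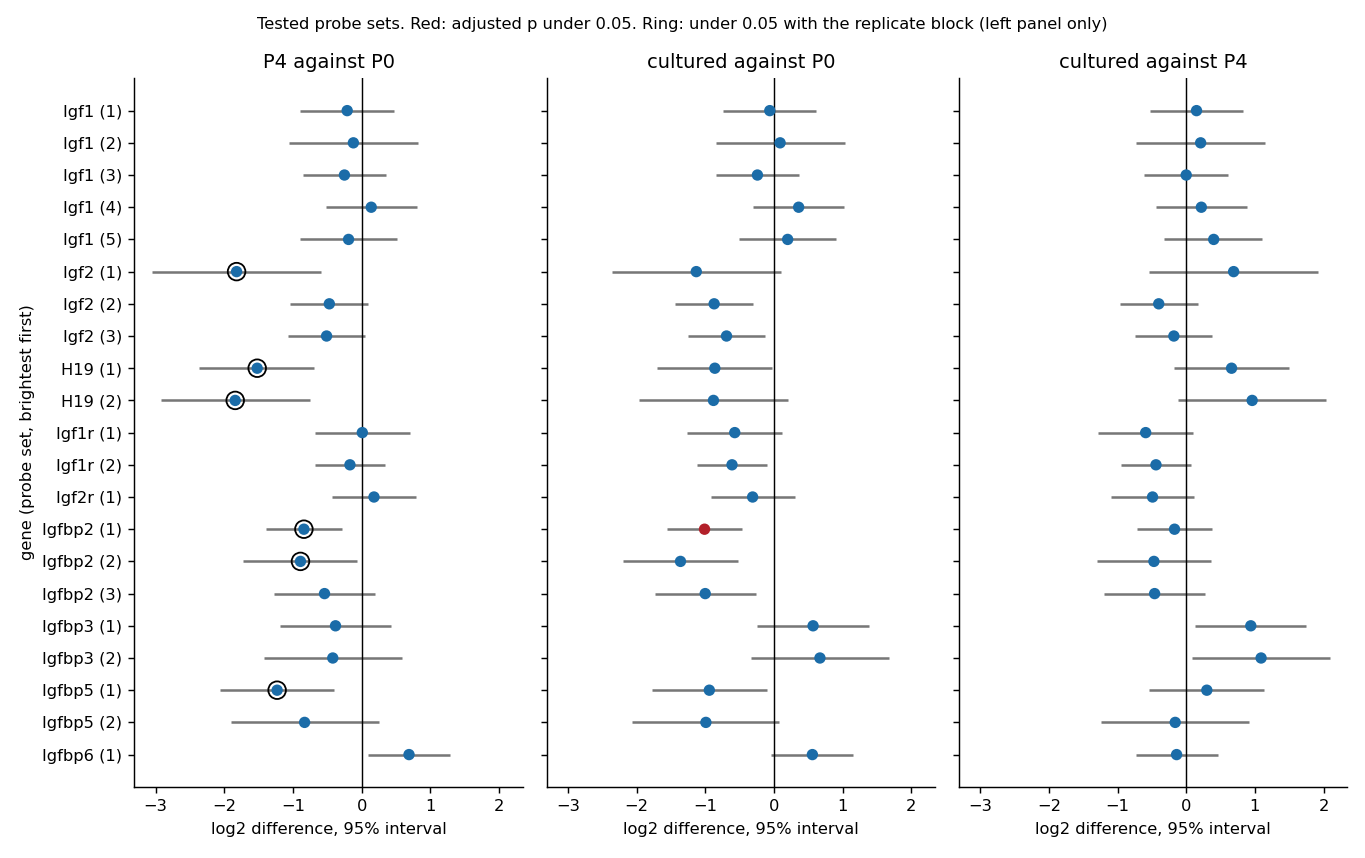
Log2 difference (points) and its 95% interval (lines) of the 21 tested probe sets in the 3 comparisons, numbered within each gene from the brightest; red marks an adjusted p under 0.05 without a block and a ring one under 0.05 with the replicate block, which exists for P4 against P0 only. The 6 rings belong to Igf2, H19, Igfbp2 and Igfbp5, and the single red point is Igfbp2 in culture against P0.

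H19 had the profile nearest to that of the brightest Igf2 probe set over the arrays. The dimmer Igf2 probe sets M17960_g_at and M17960_at had another order of group means than H19. They averaged 93.6 and 51.8 at P0, 65.4 and 34.2 at P4, and 48.8 and 29.2 in culture. Likeness was measured as the distance between log2 values over the 6 arrays, each profile centred on its own mean. Of 6117 other tested probe sets, those of H19 were the nearest to Igf2 (X17012mRNA_s_at), at distances of 0.666 and 0.758 log2 units. The nearest named genes outside the IGF group were Irs2, an adaptor of the insulin and IGF receptors, and Pla1a, a phospholipase, both at 1.20, then Cited2, a transcriptional coregulator, at 1.21, Hspa9, a mitochondrial chaperone, at 1.25 and Cckbr, a cholecystokinin receptor, at 1.26. Irs2 read 25.1 and 39.7 at P0, 12.6 and 15.3 at P4, and 8.1 and 32.5 in culture. Of the 6 readings, 3 lie under the level of unspiked controls for Irs2, 4 for Ccn1, 2 each for Hspa9, Cckbr and Prap1 and 1 for Pla1a, so the distances of these genes rest in part on readings at background. The nearest to H19 (X59864mRNA_g_at), besides its own second probe set, were Pla1a at 0.612 and Cited2 at 0.725, ahead of Igf2 at 0.758, which ranked 4. Prap1, the secreted matrix protein gene Ccn1 and the transcription factor gene Klf9 followed. Cited2 read 213 and 380.1 at P0, 67.8 and 102.5 at P4, and 165.5 and 276.1 in culture. The points share arrays and their scaling, and 6 arrays are few, so the likeness is a description of these pools.

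**Figure D4:**
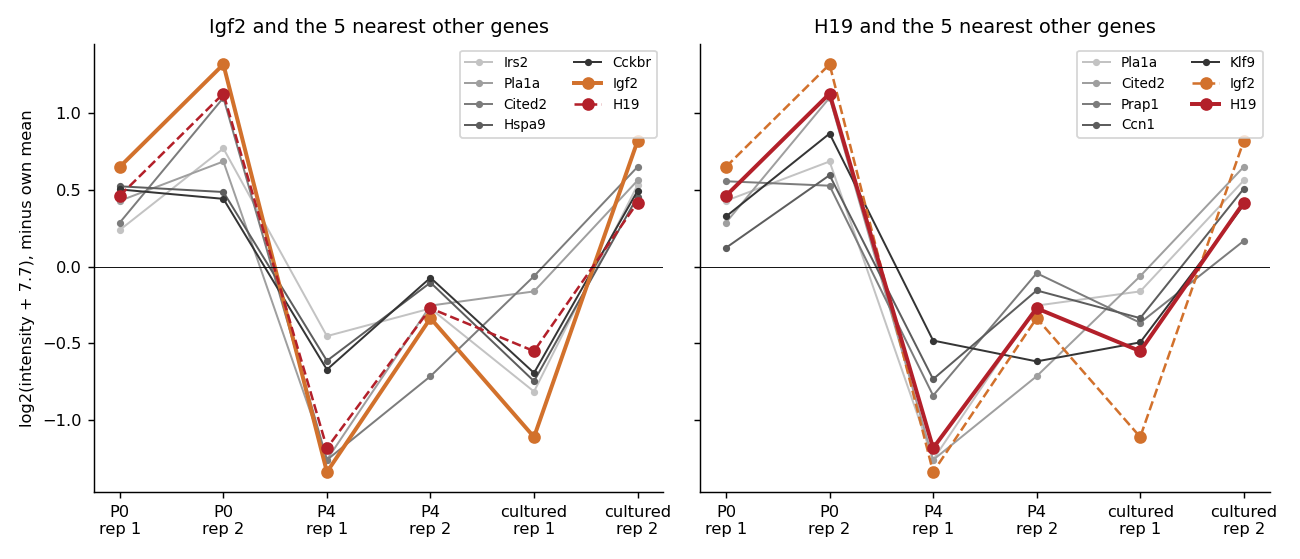
Log2(intensity + 7.7) minus its own mean over the 6 arrays (y axis) for the brightest probe sets of Igf2 (orange) and H19 (red) and, in grey, the 5 nearest named genes to Igf2 (left) and to H19 (right). Both transcripts are high on the P0 arrays, lowest on P4 replicate 1, and higher on cultured replicate 2 than on cultured replicate 1.

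The wider insulin and IGF signalling list held 28 tested genes of 31 on the array. Between P4 and P0 none passed without the block, with a median of -0.07 against -0.05 over all tested. Grb14, an adaptor that inhibits the insulin receptor, read 72.7 and 62.5 at P0 and 161.4 and 125.5 at P4 (log2 difference 1.00, limma adjusted p = 0.101, or 0.0168 with the block). The related adaptor Grb10 differed by -0.70 (adjusted p = 0.263) and the growth hormone gene Gh1 by -0.70 at 11.2 to 30 (adjusted p = 0.409). In culture 1 fell relative to P0 and 27 did not pass, and the same counts held relative to P4. That gene was Socs2, an inhibitor of growth hormone signalling, at 52.7 and 93.1 at P0, 58.5 and 105.5 at P4, and 11.2 and 15 in culture. It was at least 3.65-fold lower in culture than at P0 (adjusted p = 0.0133) and at least 4.10-fold lower than at P4 (adjusted p = 0.0108), a bound that sets cultured readings to 20. The call against P0 ended without P0 replicate 2, cultured replicate 1 or cultured replicate 2 (adjusted p = 0.0776, 0.102 and 0.0801), and that against P4 without P4 replicate 2 or either cultured array (adjusted p = 0.0637, 0.111 and 0.0715). The phosphatase gene Ptpn11 read 4 and 8.8 in culture against 21.7 to 33.5 elsewhere (adjusted p = 0.0852 against P0 and 0.073 against P4, the latter 0.0401 with no intensity trend). Both cultured readings lie under the level of unspiked controls. With them set to 20, the Ptpn11 mean was 1.18-fold lower in culture than at P0 and 1.42-fold lower than at P4. Grb10 differed from P0 by -0.56 (adjusted p = 0.257) and the kinase gene Map2k2 from P4 by -0.54 (adjusted p = 0.317). Igfbp1, the neighbour of Igfbp3, read 2.5 to 8.3 and was too dim to test.

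Of 10 tested genes for binding protein proteases and carriers, none passed between P4 and P0 (median 0.02), where Mmp2 differed by 0.20 (limma adjusted p = 0.792), and Mmp9 on all P0 and P4 arrays and Mmp7 on both P4 arrays lay under the level of unspiked controls. Relative to P0, 3 rose in culture and 7 did not pass (median 0.32). The matrix metalloprotease Mmp7 read 19.8 and 22.1 at P0, 12.6 and 13.1 at P4, and 536 and 388.9 in culture, at least 22.0-fold above P0 (adjusted p = 2.09e-05) and at least 23.1-fold above P4 (adjusted p = 9.94e-06). Mmp9 read 4.2 to 8.2 at P0 and P4 and 76.9 and 48.5 in culture, at least 3.14-fold above either (adjusted p = 0.00364 and 0.00721, the latter 0.0872 without cultured replicate 1). Plau, the urokinase plasminogen activator, read 43.9 and 44.2 at P0 and 104.6 and 83 in culture (log2 difference 0.96, adjusted p = 0.0444), a call lost whichever of the 6 arrays was left out (adjusted p up to 0.185), and also with no filter on dim probe sets, no intensity trend or array weights (adjusted p = 0.0959, 0.056 and 0.0523). Relative to P4, 2 rose and 8 did not pass, Plau among the latter (0.82, adjusted p = 0.122). Macrophage genes were also higher in culture, as given above, and their part was not tested.

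Of 14 tested genes on a list of other imprinted genes, none passed between P4 and P0 without the block, with a median of -0.30 against -0.05 over all tested. The list was picked by name, and whether its genes are imprinted in the rat ovary was not tested. With the block 2 fell and 1 rose. Dlk1, a membrane protein of fetal tissues, read 408.4 and 756.1 at P0, 199.9 and 294 at P4, and 208 and 141.6 in culture (P4 against P0 -1.17, limma adjusted p = 0.143, or 0.00495 with the block). Plagl1, a zinc finger transcription factor, read 449.4 and 540.9, then 263.7 and 327.5, then 268 and 157.6 (-0.73, adjusted p = 0.267, or 0.0342 with the block). Gatm, an enzyme of creatine synthesis, rose with the block from 257.2 and 253.3 to 458.2 and 527 (0.92, adjusted p = 0.0601, or 0.0137 with the block). In culture Dlk1 and Plagl1 fell relative to P0, by 1.65 and 1.23 (adjusted p = 0.0201 and 0.0301), and 12 did not pass (median -0.13). Dlk1 lost this call without P0 replicate 2, cultured replicate 1 or cultured replicate 2 (highest adjusted p = 0.174), and Plagl1 without P0 replicate 1, P0 replicate 2 or cultured replicate 2 (highest adjusted p = 0.193) or with no intensity trend in the variances (adjusted p = 0.0649). Relative to P4 none passed (median 0.03): Dcn differed by 0.70, Gatm by -0.70 and Ascl2 by 1.13 (adjusted p = 0.0782, 0.107 and 0.338). The Ascl2 difference rests on cultured replicate 2, at 58.7. Every other array read 9.2 to 13.6, under the level of unspiked controls.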

How the data were processed

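RNA of pooled rat ovaries was extracted with Trizol and biotin-labelled, per the labels' protocols. The table as deposited gives linear intensities, 1 per probe set and array, that appear, from their values, to have been scaled by the authors: each array's mean was 125.2 once 2% of values had been dropped at either end. How that was computed, and with what software, is not given in the sources used here. No normalization was added.

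Before taking log2, 7.7 was added to every value (the 20th percentile served as pseudocount), so log2 differences understate the change of dim genes. Leaving out 59 control and 2622 dim probe sets left 6118. Symbols came from the array's annotation; 7018 probe sets had 1 symbol, 308 several and 1473 none, and 6994 matched a RefSeq gene number. The 3 group means were fitted together (limma 3.58.1, R 4.3.3, variances with an intensity trend, 3 residual and 6.45 prior degrees of freedom), two-sided, and a Benjamini-Hochberg adjusted p under 0.05 over the 6118 was called passing. With 2 arrays a group an exact permutation test cannot go below p = 0.33. The block fit for P4 against P0 left out the cultured arrays. Its block was the replicate number, which the P0 and P4 arrays share with a number in their chip IDs, per the labels. Deviations of same-numbered arrays correlated at 0.33. Replicate arrays correlated at 0.962 to 0.969, and their number limits the precision (median SE 0.259). A bound of at least N-fold is a ratio of group mean intensities with readings under 20 in the dimmer group set to 20.

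Genes and lists were chosen with earlier results of these data known. All probe sets of the 10 genes are given. From the 3 lists of related genes, those past the threshold in a comparison were named on the brightest tested probe set. Where fewer than 3 passed, the 3 of smallest p were named. Genes passing with the block were added. Cell type markers are given as sums, with calls added for some types. The fit was tested on simulated data for 6118 probe sets, with arrays drawn independently and so without the correlation of same-numbered arrays. Between P4 and P0, 100 probe sets were changed by 1 and 100 by 2 on the log2 scale. Of each 100, 24 and 74 were called, along with 1 unchanged probe set. Alternatives were 2 pseudocounts, 2 filters, 2 normalizations, 2 variance models, leaving out each array, the block, and a fit to the P0 and P4 arrays alone.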

Additional observations from a re-analysis of the deposited data

How the results depend on the processing

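Among alternatives other than leaving out an array, 1 value for the IGF genes and H19 turned its direction: Igf1 on X06107_r_at, cultured against P4, was -0.03 after quantile normalization and 0 without it. The number of probe sets passing between P4 and P0 was 66, and it was 23 with no filter on dim probe sets, 29 with no intensity trend, 314 with the replicate block and 23 with only the P0 and P4 arrays. Of the IGF and H19 probe sets, 6 passed with the replicate block, where 0 passed without it; 38.2% of the 314 were lower. Between culture and P0, the single call among these genes became 0 with no filter, with quantile normalization, with arrays centred on their median, with no intensity trend and with array weights. The cause was not tested.

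Leaving out 1 array at a time assumes that the lone array of a group varies like the other groups. It gave 15 to 55 probe sets passing between P4 and P0, 90 to 353 between culture and P0 and 86 to 193 between culture and P4, with 0 to 1, 0 to 2 and 0 to 0 of these genes' probe sets among them. Directions that turned had these ranges over the 6 fits. For P4 against P0 they were -0.86 to 0.63 (Igf1, M15481_at), -0.41 to 0.02 (Igf1, X06107_i_at), -0.43 to 0.46 (Igf1r, L29232_at), -0.07 to 0.43 (Igf2r), -0.96 to 0.13 (Igfbp3, rc_AI009405_s_at) and -1.7 to 0.05 (Igfbp5, M62781_at). For culture against P0 they were -0.57 to 0.44 (Igf1, M15481_g_at), -0.65 to 0.84 (Igf1, M15481_at), -0.66 to 0.04 (Igf2r) and -0.04 to 1.17 (Igfbp3, M31837_at). For culture against P4 they were -0.36 to 0.66 (Igf1, M15481_g_at), -0.17 to 0.17 (Igf1, X06107_r_at), -0.27 to 1.66 (Igf2, X17012mRNA_s_at), -0.47 to 0.13 (Igfbp2, J04486_at), -1.01 to 0.07 (Igfbp2, M91595exon_s_at), -0.35 to 0.94 (Igfbp5, rc_AI029920_s_at), -0.45 to 0.13 (Igfbp5, M62781_at) and -0.41 to 0.14 (Igfbp6). With 2 arrays a group, differences near these ranges are not resolved.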
